A study of Homo sapiens with 6 samples.

Results

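The 956 microRNA loci described here are the genes of the array whose platform symbol is MIR followed by a number, outside the imprinted MEG3 to MEG9 interval of chromosome 14. Host gene entries ending in HG were left out, as were the 51 loci of that interval and the 3 measured loci of the miR-17-92 and miR-106b-25 clusters. They make up 956 of 14779 genes with a named row, among 31135 rows of the value table. A locus with several rows was read from its brightest row, by the mean of all 6 arrays. The rule itself used symbols, row numbers and brightness, and no comparison between treatments, but it was set with earlier results of these data known. MIR2392, which lies near MEG3 in the reference gene table but outside the interval left out, counted as a member.

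The samples were BE(2)-C cells, an established human neuroblastoma line, and so 1 genetic background. DMSO, the vehicle, was given to 3 samples and 10 µM NCT-503 to 3 samples, all for 2 days in the same serum-containing medium. NCT-503 is a small molecule that inhibits PHGDH, the dehydrogenase at the start of serine synthesis. The question was which RNAs differ after the inhibitor, on whole-transcript arrays of total RNA, 1 array per sample.

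A microRNA gene is transcribed as a long primary transcript, often as part of a host gene. Drosha and its RNA-binding partner DGCR8 cut out a hairpin, Dicer trims the hairpin to a short duplex, and 1 strand is loaded into an Argonaute protein. The loaded strand pairs with messenger RNAs mainly through its seed, the bases near its 5′ end, and lowers their stability or translation. The array rows report RNA of the locus from total RNA and do not single out the loaded mature strand. No source used here says which part of a locus or of its host the probes read, so a primary transcript, a hairpin and host RNA across the locus cannot be told apart.

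The sequences below are those of RefSeq on GRCh38.p14, which held 886 of the 956 loci. The first set is the miR-23b/27b/24-1 cluster, shown because 2 of its 3 neighbouring hairpins had some of the largest falls and the other was at a very low level. All 3 lie on the plus strand inside AOPEP, an aminopeptidase gene: MIR23B at chr9:95085208-95085304, MIR27B at chr9:95085445-95085541 and MIR24-1 at chr9:95086021-95086088. Exons and introns were not separated in the gene table used, which gives whole gene spans. Capitals mark the mature strands.
MIR23B: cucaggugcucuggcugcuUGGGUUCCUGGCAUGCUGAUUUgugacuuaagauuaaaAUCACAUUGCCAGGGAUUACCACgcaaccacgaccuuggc
MIR27B: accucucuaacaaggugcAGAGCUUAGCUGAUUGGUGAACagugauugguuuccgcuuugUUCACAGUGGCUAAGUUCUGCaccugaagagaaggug
MIR24-1: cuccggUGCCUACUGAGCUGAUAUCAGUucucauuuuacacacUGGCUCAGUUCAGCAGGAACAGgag

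The next set is shown because some loci on different chromosomes that carry 1 seed fell. Not all loci in it did: MIR130B changed by 0.14 and MIR181A1 by −0.11, and neither was called. Capitals mark the seed, bases 2 to 8 counted from the 5′ end. The miR-181 strands come from MIR181B1 (chr1:198858925-198858947, minus strand), MIR181A2 (chr9:124692480-124692502, plus strand) and their neighbours. The miR-301a seed strands come from MIR4295 (chr10:112634180-112634197, plus strand), MIR454 (chr17:59137787-59137809, minus strand), MIR301A (chr17:59151149-59151171, minus strand) and MIR130B (chr22:21653354-21653375, plus strand). The miR-15/16 strands come from MIR15B (chr3:160404607-160404628, plus strand), MIR16-2 (chr3:160404754-160404775, plus strand), MIR424 (chrX:134546680-134546701, minus strand) and MIR503 (chrX:134546371-134546393, minus strand). The last base of the miR-503 seed differs from that of the other 3.
hsa-miR-181b-5p: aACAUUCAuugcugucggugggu
hsa-miR-181a-5p: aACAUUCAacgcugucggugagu
hsa-miR-4295: cAGUGCAAuguuuuccuu
hsa-miR-454-3p: uAGUGCAAuauugcuuauagggu
hsa-miR-301a-3p: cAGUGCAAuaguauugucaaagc
hsa-miR-130b-3p: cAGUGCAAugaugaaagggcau
hsa-miR-15b-5p: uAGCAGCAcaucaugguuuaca
hsa-miR-16-5p: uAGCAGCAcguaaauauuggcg
hsa-miR-424-5p: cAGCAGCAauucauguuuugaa
hsa-miR-503-5p: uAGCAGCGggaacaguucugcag

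The last set holds the hairpin with the largest fall and 3 whose host genes rose. MIR3942 lies inside DPH6 (chr15:35372256-35372364, minus strand), MIR616 inside DDIT3 (chr12:57519163-57519259, minus strand), MIR3189 inside GDF15 (chr19:18386562-18386634, plus strand) and MIR554 inside TUFT1 (chr1:151545796-151545891, plus strand). Each is on its host's strand, and capitals again mark mature strands.
MIR3942: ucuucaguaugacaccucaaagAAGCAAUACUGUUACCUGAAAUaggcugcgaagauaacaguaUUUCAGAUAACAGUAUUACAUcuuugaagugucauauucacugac
MIR616: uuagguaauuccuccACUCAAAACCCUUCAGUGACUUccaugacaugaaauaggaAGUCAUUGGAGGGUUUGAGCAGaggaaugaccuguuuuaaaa
MIR3189: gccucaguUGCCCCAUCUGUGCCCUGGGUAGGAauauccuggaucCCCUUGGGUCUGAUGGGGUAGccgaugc
MIR554: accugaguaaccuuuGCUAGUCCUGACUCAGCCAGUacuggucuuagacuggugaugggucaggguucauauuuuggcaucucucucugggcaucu

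Values are deposited log2 values. The median of an array's rows was 4.295 to 4.326, and the 75th percentile was 6.16 to 6.19 in the DMSO arrays and 6.034 to 6.085 in the NCT-503 arrays. Adrenergic neuroblastoma markers were measured at high levels, with the noradrenaline-synthesising enzyme DBH above 99.2% of genes and the transcription factor HAND2 above 97.4%. TH, the first enzyme of catecholamine synthesis, stood above 64.7%. The fibroblast marker LUM lay above 80.1% of genes, and the epithelial markers EPCAM and KRT8 above 51.9% and 50.6%. LUM stood at 7.22 ± 0.07 with DMSO and 6.98 ± 0.08 with NCT-503 (SD, n = 3), and the part of other cell types in the results was not tested.

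Most microRNA loci did not pass the test after NCT-503, and among those that changed strongly falls outnumbered rises. A change is the log2 mean with NCT-503 less that with DMSO, its standard error (SE) is limma's, and a locus was called at a Benjamini-Hochberg adjusted p under 0.05 over all 14779 genes. Of the 956 loci, 66 (6.9%) rose, against 16.4% of all genes tested, and 108 (11.3%) fell, against 17.1%. The other 782 were not called. Had the arrays been centred at their 75th percentiles, 107 would have risen and 98 fallen. At 2-fold or more, 9 loci (0.941%) rose, against 1.06% of all genes, whereas 49 (5.13%) fell, against 3.2%, and these were 10.4% of all genes with such a fall. The median change was 0.02 for the loci and 0.06 for all genes, and the loci ranged from −3.37 to 2.53.

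Most microRNA loci were dim on this array, and calls were rarer at low levels. Their median level was 3.2 against 5.0 for all genes, and their median SE was 0.152 against 0.105. With all genes split by mean level into 4 equal bands, 545 of the 956 loci (57.0%) were in the lowest band, below 3.62, and 32 in the highest, above 6.7. In the lowest band 33 loci (6.06%) fell, against 2.44% of the other genes, and 30 (5.5%) rose, against 7.81%. In the second band 38 of 234 loci (16.2%) fell, against 11%, and 21 (8.97%) rose, against 12.1%. In the third band 28 of 145 (19.3%) fell, against 26.9%, and 11 (7.59%) rose, against 17.8%. Of the 32 brightest loci 9 (28.1%) fell, close to the 27.7% of other genes, and 4 (12.5%) rose, against 28.9%. These differences in share were not tested.

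**Figure D1:**
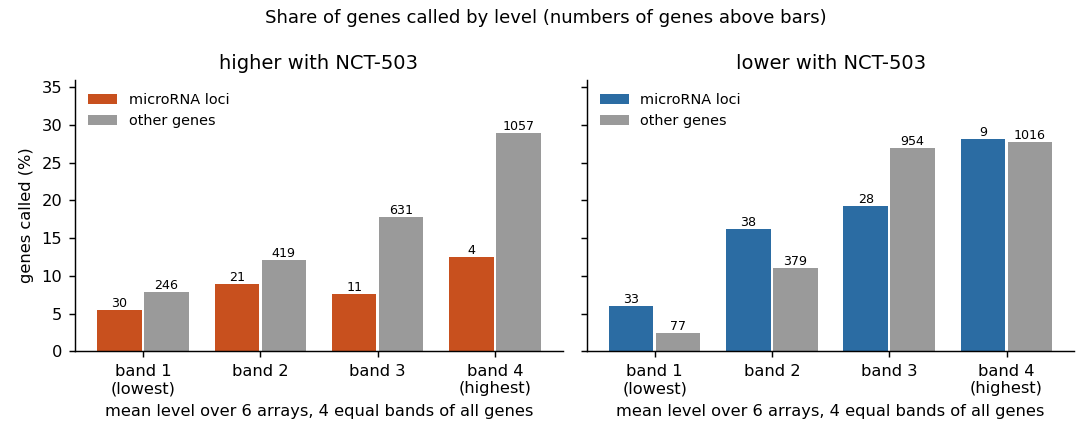
Share of genes called higher (left) or lower (right) with NCT-503, in percent, by band of mean level (4 equal bands) over all 14779 genes; coloured bars are microRNA loci, grey bars other genes, and the number above a bar is the count of genes called. The orange bars are below the grey ones in each band, and the blue bars are above the grey ones in the lowest 2 bands (6.06% against 2.44%, 16.2% against 11%).

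The 5 loci with the highest mean level were MIR4737, MIR3689F, MIR574, MIR4442 and MIR3907, at 7.99 to 10.63. MIR574, a locus inside FAM114A1, rose from 8.86 ± 0.10 to 9.31 ± 0.03 (SD, n = 3), a change of 0.45 (adjusted p = 0.00501, limma). The other 4 were not called, with changes from −0.13 to 0.22.

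The largest fall was that of MIR3942, and MIR573 and MIR32 were among the next. MIR3942 stood at 6.11, 5.96 and 6.10 in DMSO a, b and c and at 2.95, 2.65 and 2.47 in NCT-503 a, b and c. The treated arrays lay far below the controls, a fall of 3.37 ± 0.13 (SE, 10.3-fold, limma adjusted p = 1.12e-05). Its host DPH6, an enzyme of diphthamide synthesis, fell by 0.49. MIR573 went from 6.64, 6.66 and 6.85 to 3.81, 3.97 and 4.01, again with no overlap. This was a fall of 2.78 ± 0.09 (6.88-fold, adjusted p = 7.03e-06) at a locus outside other genes on its strand. Its nearest measured gene, the splicing helicase gene DHX15 at 7.2 kb, fell by 0.50. MIR32 went from 5.65, 5.23 and 5.34 to 3.32, 2.52 and 2.79, with all treated arrays lower. That is a fall of 2.53 ± 0.21 (5.76-fold, adjusted p = 0.000188), while its host TMEM245 fell by 0.26.

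In the cluster of MIR23B, MIR27B and MIR24-1 the first 2 fell. MIR27B stood at 7.09, 6.93 and 7.07 with DMSO and at 4.42, 4.48 and 4.38 with NCT-503, a fall of 2.61 ± 0.08 (SE, 6.09-fold, adjusted p = 5e-06). MIR23B stood at 7.42, 7.52 and 7.60 and at 5.11, 5.08 and 4.94, a fall of 2.47 ± 0.09 (5.54-fold, adjusted p = 7.5e-06). In both the 3 treated arrays were close together and well below the controls. MIR24-1, the third hairpin, stood between 1.38 and 1.69 in all 6 arrays, where only 1.2% of genes had a lower mean, and changed by 0.07 (adjusted p = 0.609). AOPEP, their host, fell from 7.34 ± 0.13 to 6.44 ± 0.13 (SD, n = 3), a fall of 0.90. MIR2278, another hairpin inside AOPEP, fell by 0.88 from a level of 4.91 ± 0.30. The second copy of the cluster was measured too: MIR23A changed by 0.34, MIR27A by 0.27 and MIR24-2 by −0.06, none of them called.

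Further falls ranged from 2.39 to 1.90. MIR421, on the X chromosome inside the noncoding gene FTX, fell by 2.39 ± 0.19 from 7.04 ± 0.14 (adjusted p = 0.000161). Of the other loci inside FTX, MIR374B and MIR545 were not called (−0.02 and −0.17), and MIR374A was called higher (0.68, adjusted p = 0.047) with overlapping groups. MIR4295, inside the vesicle-fusion gene VTI1A, fell by 2.29 ± 0.16, MIR570 by 2.23 ± 0.18 and MIR5047, inside the helicase gene DDX5, by 2.14 ± 0.10. MIR4677 fell by 2.05 ± 0.22 while its host SDCCAG8 changed by 0.10 (adjusted p = 0.432). MIR331 and MIR3685, neighbours on chromosome 12, fell by 2.05 ± 0.33 and 1.90 ± 0.17, and the NCT-503 a array was the lowest for MIR331 (2.62, against 3.99 and 3.78). MIR645 fell by 1.95 ± 0.15.

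The rises were fewer and mostly of dim loci. MIR3136 stood at 2.53, 3.27 and 3.39 in the DMSO arrays and at 5.38, 5.65 and 5.76 in the NCT-503 arrays. Every treated array was above every control, a rise of 2.53 ± 0.23 (SE, 5.79-fold, limma adjusted p = 0.000256), and its host TMF1, a Golgi protein gene, rose by 0.43. MIR554 went from 2.77, 2.60 and 2.77 to 4.99, 5.09 and 5.05, tight groups that lie far apart. Its rise was 2.33 ± 0.08 (5.04-fold, adjusted p = 7.73e-06), and its host TUFT1 rose by 1.57. MIR548S went from 1.92, 1.65 and 1.3 to 4.53, 3.57 and 3.30, without overlap. It rose by 2.18 ± 0.32 (adjusted p = 0.00194), while its host LPIN1, a phosphatidate phosphatase gene, changed by 0.19 (adjusted p = 0.0979).

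MIR616 and MIR3189 lie in genes of the stress response. DDIT3 encodes the transcription factor CHOP and GDF15 a secreted stress cytokine; they rose by 3.4 and 3.81. MIR616 stood at 3.16, 4.02 and 3.53 with DMSO and at 5.26, 5.14 and 5.16 with NCT-503, a rise of 1.61 ± 0.20 (SE, 3.06-fold, adjusted p = 0.000974). MIR3189 stood at 3.12, 1.75 and 2.87 and at 4.61, 4.10 and 3.48. The groups did not overlap, but the spread was wide, and the rise of 1.48 ± 0.40 (adjusted p = 0.0268) was not called without NCT-503 a (adjusted p = 0.0806) or without NCT-503 b (adjusted p = 0.0643). Among the other large rises, MIR3115 rose by 1.33 ± 0.12 inside KDM1A, the lysine demethylase gene, which changed by −0.13. MIR618 rose by 1.11 ± 0.17, MIR3684 by 1.02 ± 0.19 (adjusted p = 0.0502 without limma's moderation of the variances) and MIR628 by 1.00 ± 0.16. MIR628 lies in CCPG1, which had no named row, and the readthrough gene DNAAF4-CCPG1 across it rose by 1.08. MIR596 rose by 0.93 ± 0.10 and MIR196A1 by 0.74 ± 0.16 (adjusted p = 0.0613 without moderation).

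Other rises lost their call when 1 array was left out. MIR3116-1 rose by 0.94 ± 0.26, was not called without NCT-503 b (adjusted p = 0.0787) or NCT-503 c (0.0648), and its dimmer second row went the other way. MIR1278 rose by 0.87 ± 0.27 and lost its call without any single array but DMSO a, its adjusted p reaching 0.117 without NCT-503 a. MIR4503 rose by 0.90 ± 0.22 and lost its call without DMSO a (adjusted p = 0.0547), DMSO c (0.0556) or NCT-503 c (0.0597). MIR548AK, at a mean level of only 1.75, rose by 0.91 ± 0.21 and lost its call without NCT-503 c (limma adjusted p = 0.0541).

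**Figure D2:**
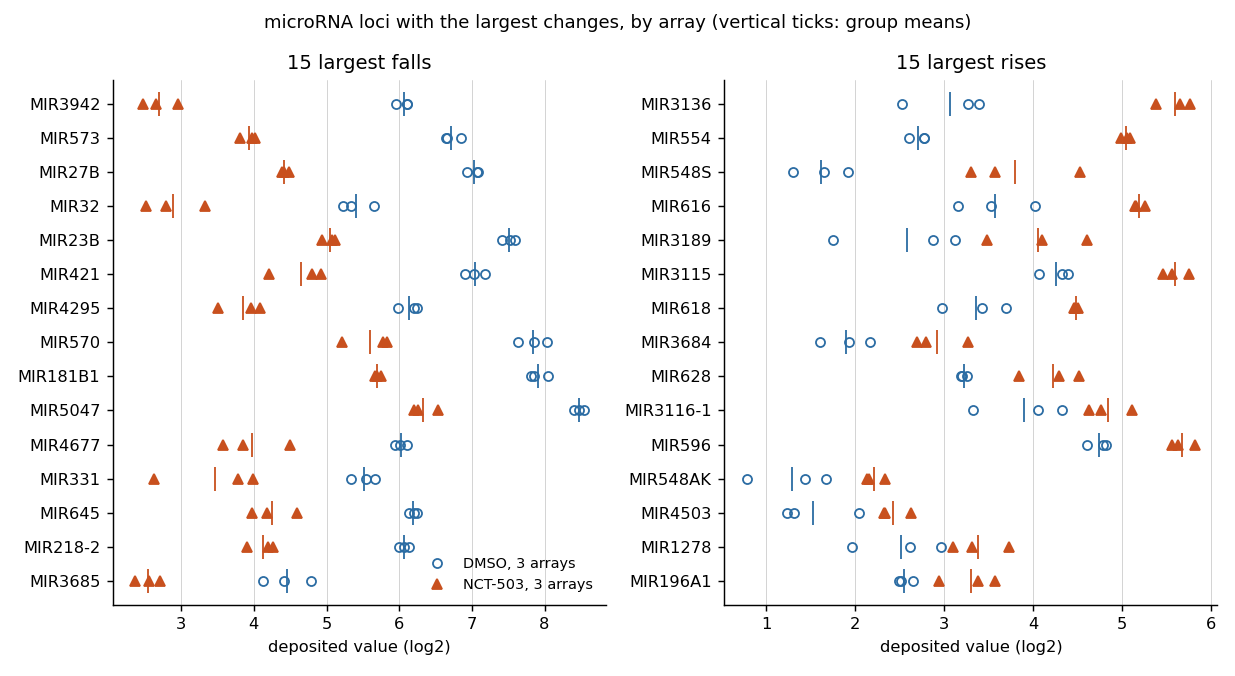
Deposited log2 values in each array for the 15 largest falls (left) and the 15 largest rises (right) among loci called by limma whose groups do not overlap; open circles are DMSO, triangles NCT-503, and vertical ticks the group means of 3 arrays. MIR3942 moved from 5.96 to 6.11 with DMSO to 2.47 to 2.95 with NCT-503, and MIR554 from at most 2.77 to at least 4.99, while the groups of MIR1278 and MIR3116-1 lie close together.

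Where a locus and its host were both called, they mostly changed in the same direction but by different amounts. Of the 886 loci with a strand in the sequence table, 494 lie inside a gene on the same strand, and 273 of these have a measured host, 244 different genes in all. Inside the 65 hosts counted per locus that fell, 24 loci fell (36.9%, against 17.1% of all genes), none rose and 41 were not called. The median change was −0.39 for these loci and −0.54 for their hosts. Where the host rose, 9 of 54 loci rose (16.7%), near the 16.4% of all genes, 3 fell (5.56%) and 42 were not called. The medians were 0.07 for the loci and 0.44 for the hosts. Inside the 154 hosts that were not called, 11 loci rose (7.14%) and 25 fell (16.2%). Across the 273 pairs Pearson's r of the changes was 0.474 and Spearman's rho 0.393, a description of pairs that share arrays and, in part, a host. Without MIR616 and MIR3189 r was 0.441, and in the 141 pairs above the lowest band of level it was 0.528.

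In 36 pairs both the locus and the host were called, 33 of them in the same direction. In 23 of the 33 the locus changed more than the host, but this count holds only loci whose change was large enough to be called. Over all loci in called hosts the medians were smaller than those of the hosts (−0.39 against −0.54, and 0.07 against 0.44). The pairs inside hosts that changed by 2-fold or more include loci called with their host and loci not called. MIR137HG, the host transcript of the neuronal miR-137, fell by 1.53, and MIR2682 inside it went from 5.79, 5.85 and 6.15 to 4.63, 4.08 and 3.79, a fall of 1.76 ± 0.21 (SE, limma adjusted p = 0.000864). ZNF141, a zinc finger gene, fell by 1.75 and MIR571 by 1.07 ± 0.14. DNM3OS, the noncoding host of the miR-199a/214 locus, fell by 1.06 and MIR214 by 0.54 ± 0.11. DALRD3 rose by 1.01, and its 2 hairpins MIR191 and MIR425 rose by 0.50 ± 0.09 and 0.44 ± 0.12; the call of MIR425 was lost without any of DMSO a, DMSO b, NCT-503 b and NCT-503 c (adjusted p 0.0595 to 0.0842). Against these, UMPS, an enzyme of pyrimidine synthesis, fell by 1.23 while MIR544B changed by −0.32 (adjusted p = 0.104). MIR9-3HG fell by 1.16 while MIR9-3 changed by −0.31 (adjusted p = 0.159), and YPEL2 rose by 1.42 while MIR4729 changed by 0.18 (adjusted p = 0.54).

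The 3 pairs that were called in opposite directions were MIR2355 (fell by 0.57) in KLF7, a transcription factor gene (0.50), MIR2909 (fell by 1.04) in AATF (0.37) and MIR548AM (fell by 0.85) in CTPS2, a CTP synthase gene (0.39). These were named after their values were seen. By position, 52 of 273 loci with a measured host fell (19%) and 20 rose (7.33%), against 17.1% and 16.4% of all genes. Of the 216 loci outside other genes 15 fell (6.94%) and 14 rose (6.48%), and of the 75 on the opposite strand of a gene 1 fell (1.33%) and 9 rose (12%). These shares were not tested against each other, and the strand of 171 loci inside a gene was not compared because it was missing for the locus or the gene.

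**Figure D3:**
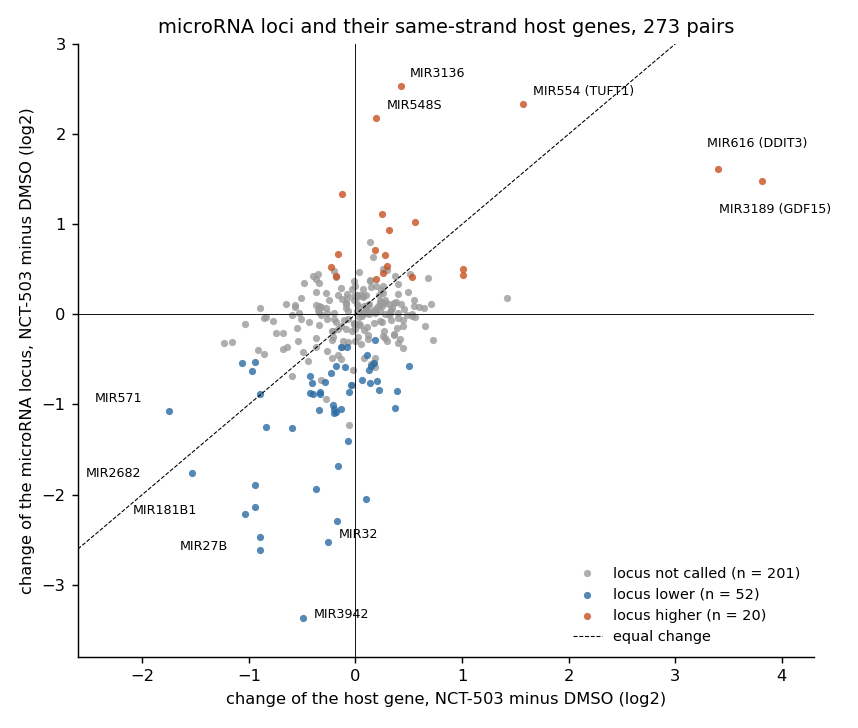
Change of each microRNA locus (vertical axis) against the change of its same-strand host gene (horizontal axis), both log2 differences against DMSO, for 273 pairs; blue loci were called lower, orange higher and grey not called, and the dashed line marks equal change. No called rise lies at a host that fell past the threshold, and MIR3942, MIR32, MIR3136 and MIR548S lie far from the line while MIR616 and MIR3189 lie below it.

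Loci called within the same run, as defined next, moved in 1 direction. Within 10 kb on 1 strand there were 48 runs of 2 or more loci, 173 loci in all. In 21 runs at least 1 locus was called, in 7 at least 2 were called, and in each of these 7 all called loci went the same way. Over all microRNA loci 6.9% rose and 11.3% fell, and over all genes 16.4% and 17.1%. The 10 kb limit matters here: MIR421 and MIR374A, both inside FTX, were called in opposite directions but lie in different runs. In 4 runs both loci were called: MIR181A2 with MIR181B2, MIR15B with MIR16-2 and MIR331 with MIR3685 fell, and MIR191 with MIR425 rose. In other runs a neighbour of a called locus was not called. Some of these were dim, such as MIR181A1 beside MIR181B1 (mean level 2.22), MIR374B beside MIR421 (1.62), MIR29B2 beside MIR29C (1.99) and MIR7-2 beside MIR1179 (1.63). Others were not, such as MIR181C (5.45) beside MIR181D (5.48). MIR1179 lies inside AEN, a p53-induced nuclease gene that fell by 0.84, and fell by 1.25 ± 0.12 itself.

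The miR-181 family, known for roles in lymphocyte and neuronal development, had the lowest median of the families, −0.82 over 6 loci against 0.06 for all genes, with 3 lower and 1 higher, against 17.1% and 16.4% of all genes. MIR181B1 went from 7.82, 8.05 and 7.85 to 5.75, 5.69 and 5.66, a fall of 2.21 ± 0.09 (SE, 4.63-fold, limma adjusted p = 1.2e-05). The groups were tight and far apart. Its host transcript MIR181A1HG fell by 1.04, and MIR181A1, at 2.00 to 2.39 in all arrays, changed by −0.11. On chromosome 9, MIR181B2 fell by 1.66 ± 0.19 and MIR181A2 by 1.53 ± 0.24, and MIR181A2HG across them fell by 0.96. On chromosome 19, MIR181D rose by 0.41 ± 0.08 (5.28 ± 0.09 to 5.69 ± 0.03, SD, n = 3), and MIR181C at the same level changed by −0.02.

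The miR-15/16 family, whose seed is found at many cell cycle and survival genes, had 4 of 7 loci lower, against 17.1% of all genes and 11.3% of all microRNA loci, none higher, and a median of −0.45 against 0.06 for all genes. MIR16-2 fell from 5.43 ± 0.25 to 4.55 ± 0.21 and MIR15B from 4.65 ± 0.17 to 3.79 ± 0.38 (SD, n = 3), changes of −0.88 and −0.86 (limma adjusted p = 0.00444 and 0.0124). The call of MIR15B was lost without moderation (adjusted p = 0.0743). Their host SMC4, a condensin subunit gene, fell by 0.33. The X-linked MIR503 and MIR424 fell by 0.71 ± 0.11 and 0.45 ± 0.09 (SE). MIR16-1 (−0.40), MIR497 (0.12) and MIR195 (0.22) were not called.

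Among 25 neuronal microRNA loci 4 fell and 1 rose, and the median was 0.07; of all genes 17.1% fell and 16.4% rose, so the count that fell is near the background. MIR218-2, a motor neuron microRNA locus inside SLIT3, an axon guidance gene, went from 6.0, 6.06 and 6.13 to 3.91, 4.19 and 4.26. All treated arrays were lower, a fall of 1.94 ± 0.11 (SE, 3.84-fold, limma adjusted p = 4.7e-05), and SLIT3 fell by 0.37. MIR218-1, the other locus of the same microRNA, changed by −0.21 (adjusted p = 0.373). MIR153-2 fell by 1.22 ± 0.26, MIR128-1 by 0.76 ± 0.16 (0.0728 and 0.0658 as adjusted p without moderation) and MIR153-1 by 0.69 ± 0.15, from DMSO means of 2.32 to 3.58, and MIR138-2 rose by 0.33 ± 0.09. The 3 loci of miR-124, the most abundant microRNA of neurons, changed by 0.08 to 0.21 and were not called, nor were MIR9-1, MIR9-3, MIR7-2 and MIR7-3.

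Of 9 loci for stress, hypoxia and inflammation 2 fell, against 17.1% of all genes, and none rose, against 16.4%. MIR21 fell by 0.57 ± 0.16 and MIR222 by 0.46 ± 0.11 (adjusted p = 0.053 without limma's moderation). The other 7 were not called, among them the hypoxia-induced MIR210, at 7.04 ± 0.11 and 7.13 ± 0.17 (SD, n = 3). The call of MIR21 was lost on leaving out DMSO a or c or NCT-503 b or c (adjusted p 0.0538 to 0.0914), and its host VMP1 changed by 0.15. Of 7 p53-linked loci 1 fell and 1 rose, against the same shares of all genes. MIR143 fell by 0.61 ± 0.16 and MIR194-1 rose by 0.38 ± 0.08. MIR34A (0.19) and MIR34B (0.31), direct p53 targets, were not called. MIR143 lost its call without DMSO a (0.0575), DMSO b (0.0731) or NCT-503 a (0.0518).

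Of 9 lipid and energy metabolism loci 1, MIR103A2, fell (1.40 ± 0.20, from 4.62 ± 0.07), and its host PANK2, a pantothenate kinase gene, changed by −0.07; the dimmer second row of MIR103A2 was not called. Of 7 loci of the miR-26 and miR-29 families MIR29C fell by 1.11 ± 0.22 (adjusted p = 0.0625 without moderation). Among 7 miR-320 loci MIR320B2 (−0.78) and MIR320D1 (−0.72) fell and MIR320C2 (0.54) rose. The call of MIR320D1 was lost on leaving out DMSO a or c or NCT-503 b or c (adjusted p 0.0783 to 0.0924), and that of MIR320C2 without NCT-503 a or c (0.0501 and 0.0577). Of 7 miR-1302 loci MIR1302-4 fell by 0.52, at a mean level of only 1.55. Beside the counts of these lists, 17.1% of all genes fell and 16.4% rose.

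None of the 6 loci of the miR-106a-363 cluster, a paralog of miR-17-92, was called, and all stood between 1.28 and 1.60 on average. None of the 6 miR-30, 6 miR-125/99/100, 5 miR-200 and 3 miR-183 cluster loci was called either. Across all genes tested 16.4% rose and 17.1% fell. The miR-200 loci, typical of epithelium, changed by 0.06 (MIR200A), 0.04 (MIR200B), 0.33 (MIR200C), 0.15 (MIR141) and 0.21 (MIR429). MIR183, MIR96 and MIR182, known from sensory organs, changed by −0.10, −0.05 and −0.08. Of the 3 microRNA loci of the HOX clusters, MIR196A1 rose, and MIR196A2 (0.33) and MIR615 (0.10) were not called.

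Shares over all genes tested were 16.4% higher and 17.1% lower, and over all microRNA loci 6.9% and 11.3%. Of 43 loci of the chromosome 19 cluster, an imprinted placental cluster, 3 rose and none fell, with a median of 0.09. MIR520G rose by 0.65 ± 0.13, MIR520H by 0.53 ± 0.13 and MIR521-2 by 0.51 ± 0.12. MIR520H lost its call without DMSO a or c or NCT-503 a or c (adjusted p 0.055 to 0.0679), and MIR521-2 without DMSO c (0.0505). In the X-linked miR-506 to miR-514 cluster 2 of 19 rose, at mean levels of only 1.66 and 1.73. They were MIR890 (0.45 ± 0.10) and MIR514A2 (0.32 ± 0.09). The call of MIR514A2 was lost without any single array but NCT-503 a (limma adjusted p 0.0573 to 0.1). Of 8 embryonic stem cell loci MIR302D rose by 0.55 ± 0.16, a call lost without DMSO a or c or NCT-503 a or c (adjusted p 0.0644 to 0.108). Among 40 miR-548 loci, which derive from a transposable element, 4 rose and 3 fell, from MIR548K (−1.55) to MIR548S (2.18). The chromosome 19 cluster and the miR-548 family hold close copies, which the probes may not separate.

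**Figure D4:**
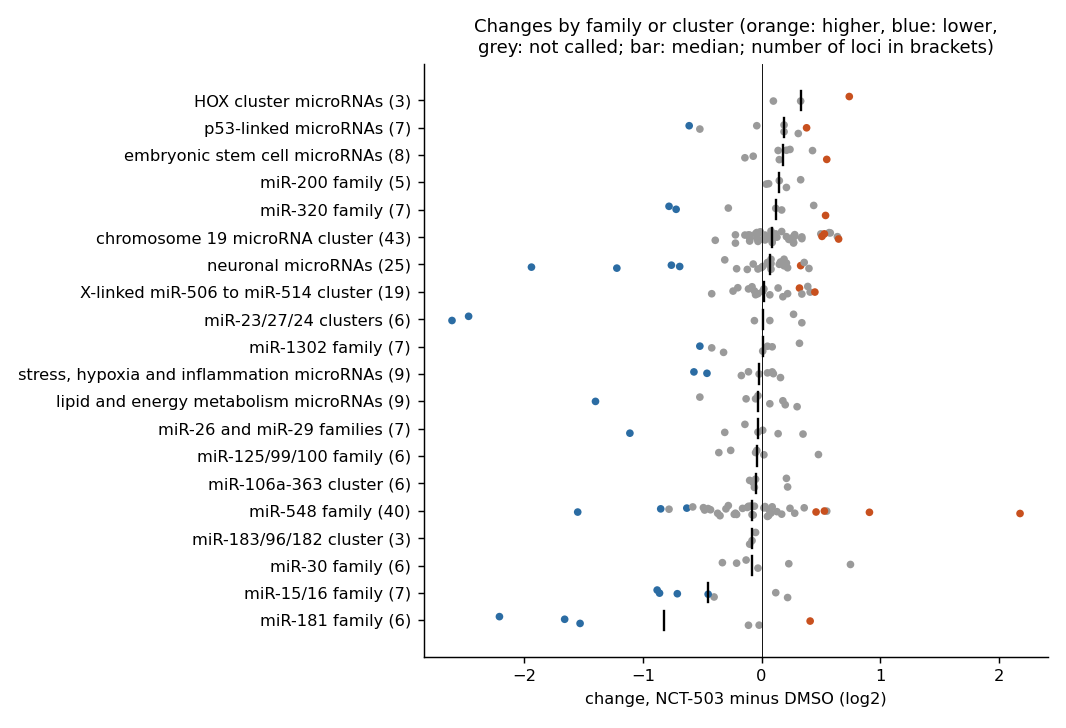
Change (log2, NCT-503 less DMSO) of every measured locus in 20 microRNA lists, 1 dot per locus, with the number of loci in brackets and a black bar at the median; orange dots were called higher, blue lower and grey not called. The miR-181 and miR-15/16 lists have the lowest medians, −0.82 and −0.45, and in most other lists the dots lie around 0 with single loci far out.

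Several genes that make, use or regulate microRNAs were lower as well. Of 12 measured genes of this list 7 fell, against 17.1% of all genes, none rose and 5 were not called. The median was −0.62 against 0.06 for all genes. The 12 include the regulators LIN28A, DIS3L2 and LIN28B, and LIN28B, which fell by 0.65, is 1 of the 7. Genes for Drosha, Dicer and the Argonautes are not among the 12. DGCR8, which binds the primary transcript for Drosha, went from 6.61, 6.42 and 6.21 to 3.42, 3.70 and 3.90, a fall of 2.74 ± 0.15 (SE, 6.69-fold, limma adjusted p = 4.62e-05). DDX5, a helicase of the Drosha complex, fell by 0.94 ± 0.07 from a level of 10.64 ± 0.06 (SD, n = 3). TNRC6C and TNRC6A, scaffold proteins that Argonaute recruits to silence messenger RNAs, fell by 0.83 ± 0.10 and 0.73 ± 0.07 (SE). XPO5, which exports the hairpins from the nucleus, changed by −0.07 and TARBP2, a partner of Dicer, by −0.01. The part of these genes in the values of the microRNA loci was not tested.

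Some loci that share a seed were called in 1 direction, and others with the same seed were not called. Among 867 loci with a mature sequence there were 1259 mature strands and 1022 different seeds, of which 138 belonged to 2 or more loci. In 9 of these 138 at least 2 loci were called, and in 6 of the 9 the calls went 1 way. The 9 are not separate, as the seeds ACAUUCA and UCACUGA both count MIR181B1 and MIR181B2. Over all microRNA loci 6.9% rose and 11.3% fell, and over all genes 16.4% and 17.1%. The groups described next were named after their values were seen. Of 6 loci with the miR-301a seed, MIR4295, MIR454 and MIR301A fell. MIR454 went from 5.35, 5.42 and 5.33 to 4.17, 4.39 and 4.23 and MIR301A from 3.17, 3.50 and 3.99 to 2.09, 2.79 and 2.63, both without overlap. Both lie in SKA2, a spindle gene that changed by −0.20 (adjusted p = 0.113). MIR130B, MIR301B and MIR3666 changed by 0.14, 0.06 and 0.00 and were not called.

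Of 6 loci with the miR-378 seed, MIR378H fell by 1.86 ± 0.19 and MIR378I by 1.01 ± 0.16, while MIR378A, MIR378F and MIR422A changed by −0.13 to 0.00 and MIR378C by 0.64 (adjusted p = 0.0506). Beside this count, 11.3% of all microRNA loci and 17.1% of all genes fell. MIR21 and MIR590, which share the miR-21 seed, fell by 0.57 and 0.29. MIR3916 and MIR3125, at mean levels of 7.13 and 6.41, fell by 0.93 ± 0.08 and 0.57 ± 0.11 and share a seed too. Where a seed is shared, the loci still make different mature strands, as the printed strands with the miR-301a seed show beyond their capitals.

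**Figure D5:**
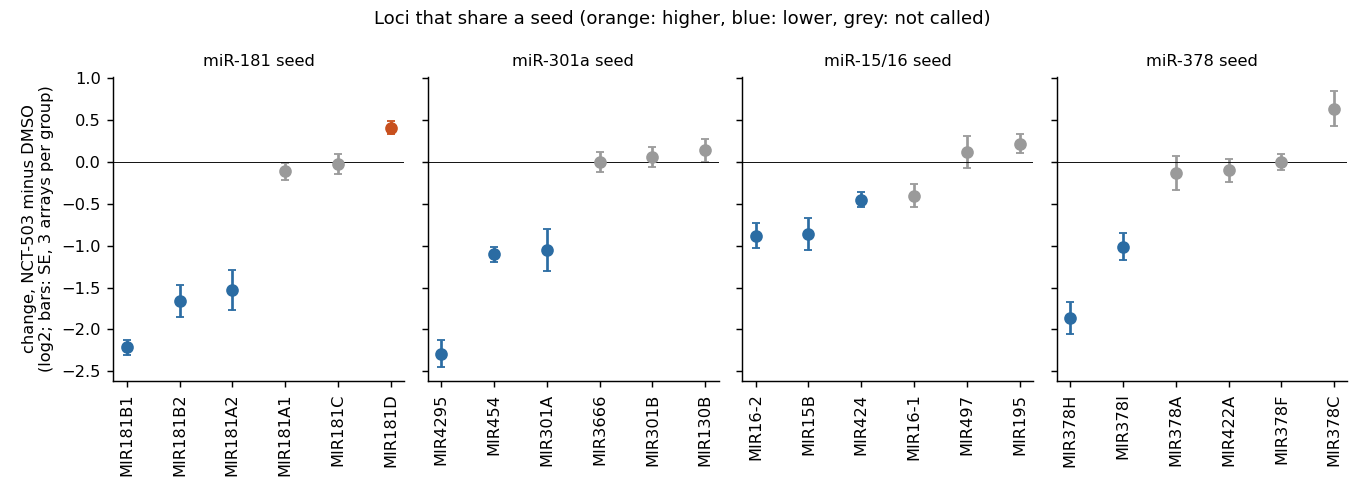
Change (log2, NCT-503 less DMSO) with SE over 3 arrays per group for the loci of 4 shared seeds; blue points were called lower, orange higher and grey not called. Each group holds loci that fell beside loci that were not called, such as MIR4295, MIR454 and MIR301A beside MIR130B and MIR181B1 beside MIR181C, and MIR181D rose.

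The hairpins of called and other loci overlapped in base composition. Over 784 hairpins with a sequence, the median GC content was 50.8% in 53 loci that rose, 45.7% in 87 that fell and 48.6% in 644 not called, with quartiles of 39.0% and 51.0% among those that fell. GC content went with the level of a locus, with a Spearman's rho of 0.576 across hairpins on the same arrays, and little with its change, at 0.124.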

How the data were processed

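RNA of 3 DMSO and 3 NCT-503 samples of BE(2)-C was labelled and hybridised to 1-colour Affymetrix whole-transcript arrays, per the labels' protocols. The deposited values are taken as log2 values from their range (0.578 to 13.6). Per the submitters' processing notes the authors used Partek. No source used here gives its version, the background correction or the normalization. Rows were not compared with background, as scanner files were not used here. The labels call the samples independent but name no separate cultures, so the p-values reflect only the spread among these samples, which may be technical.

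Platform annotation named 15098 rows, and the row with the highest mean stood for each of 14779 genes. Of the 956 loci 57 had several rows; in 1 the rows' calls opposed each other, and in 2 the rows' calls were mixed. Both groups entered 1 limma 3.58.1 fit (R 4.3.3, lmFit and eBayes, no covariates), with two-sided Benjamini-Hochberg adjustment over all genes. Of these steps only the limma fit was run on simulated data, with independent noise around the means and spreads of these arrays. Hosts and neighbours came from overlap in the RefSeq gene table of GRCh38.p14 with the microRNA sequence table's strands; 70 loci were not in the latter. No gene table coordinates are printed, because no source used here names the build of the array annotation.

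The members and lists were chosen with earlier results of these data known. The miR-320 list was corrected after the files were seen, as its pattern also took MIR3200 to MIR3202. Named are the 15 largest rises and falls among called loci with no overlap between groups, up to 3 called members per list, members of lists of 5 or fewer, loci in hosts changed 2-fold or more, the 5 brightest loci and the hosts. Others were named after their values were seen. Alternatives were trend and robust moderation, no moderation, array weights, a replicate block, 3 scalings, 2 filters on low values, means of rows, every row, an adjusted p under 0.01 and leaving out each array.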

Additional observations from a re-analysis of the deposited data

How the results depend on the processing

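The main fit called 66 loci higher and 108 lower. Without moderation these counts were 28 and 68, and at an adjusted p under 0.01 they were 20 and 71. A new fit and adjustment of only the genes above the 50th percentile of level called 26 and 50 of its 177 loci. These are not a subset of the main calls: the main fit had 11 higher and 28 lower in the third band of level, and 4 and 9 in the highest. Centring at the 75th percentile gave 107 higher and 98 lower. The median change of 0.02 was 0.06 with centring on the median and 0.09 with centring on the 75th percentile, settings that moved the median of all genes from 0.0627 to 0.105 and 0.132. The count of pairs of locus and host called in 1 direction, 33, was 12 with the 50th percentile filter and 16 at the stricter threshold. Of the 9 rises and 49 falls of 2-fold or more, 0 and 20 were above that filter, which tests fewer loci. Leaving out 1 array at a time gave 50 to 62 higher and 91 to 111 lower loci, medians of 0.0 to 0.03, 26 to 33 pairs, and 7 to 11 rises and 44 to 50 falls of 2-fold or more. With the replicate block, 80 loci were higher and 112 lower, with 36 pairs. The letters a, b and c were not treated as pairs, because deviations of same-lettered arrays correlated at 0.00361, 0.00263 and 0.0375; letters a and c matched best with their own letter and b did not. Of the 60 named loci that were called, 39 kept the call without moderation, 40 at the stricter threshold, 56 with the block and 49 to 56 without 1 array; none turned direction under these settings. The 14 loci that lost their call when 1 array was left out lost it without moderation too (adjusted p 0.0628 for MIR521-2 to 0.154 for MIR1278). The cause of these shifts was not tested. The 3 arrays per group limit the precision, and dim loci may have understated changes.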
